A study of Arabidopsis thaliana with 42 samples.

Results

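Unopened flower buds of the Arabidopsis thaliana line G3 were compared with buds of wild-type (WT) plants, both raised on mock medium, at the level of mRNA. The comparison uses 8 of the 42 libraries of the series, 4 of G3 and 4 of WT. They were chosen by the labels' tissue, genotype and treatment. All plants are of the Col-0 accession. The labels give the genotype of G3 as mtn1-1mtn2-1 (G3), that is, both alleles mtn1-1 and mtn2-1 with an added mark whose meaning they do not state. Libraries labelled mtn1-1mtn2-1 without that mark form a separate group, of which 4 mock bud libraries serve here for comparison. Mock stands for MS medium without spermidine. A further 8 bud libraries, of G3 and of WT plants, come from medium with 100 µM spermidine. Seedlings spent 14 days on the medium under continuous light and were then moved to soil in long days, so the buds formed on plants no longer in contact with it. Each library was made from pooled, ground tissue. The labels do not say how many plants were pooled or whether the replicates came from separate harvests. The p-values therefore measure the spread between libraries, estimated within groups over all 24 bud libraries. In bulk tissue, fewer cells of a type and less RNA per cell cannot be told apart.

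MTN1 and MTN2 encode the 2 methylthioadenosine nucleosidases of Arabidopsis. 5′-Methylthioadenosine is left over when S-adenosylmethionine is used to make spermidine, spermine, nicotianamine or ethylene, and the nucleosidase step starts the Yang cycle, which returns its methylthio group to methionine. Nicotianamine is a metal chelator that moves iron in the phloem, and developing flowers are a strong sink for both iron and polyamines.

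The names of the libraries need a remark before any direction is read. The deposited count table and the deposited TPM table use the same 24 bud column names, but the 16 count columns named WT or G3 were each closest in profile to the TPM column of the other genotype with the same medium and replicate number. The 8 mtn1-1mtn2-1 columns were closest to the column of their own name. The correlation with the closest TPM column lay between 0.798 and 0.904, and that with the second closest between 0.358 and 0.712. G3 and WT below are the genotypes by the names of the TPM table, under which the targeted gene is low in G3. Under the names of the count table every direction between G3 and WT would be the opposite. MTN1 was used to choose between these names, so its level is a description and has no test.

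MTN1 had 4.80, 5.07, 5.98 and 5.16 CPM (counts per 1e6 counts of the library, with totals scaled by the trimmed mean method) in the 4 G3 libraries. It had 3.71 to 4.1 CPM in the mtn1-1mtn2-1 libraries and 90.6, 89.7, 90.6 and 84.3 CPM in the WT libraries. The G3 mean was 5.25 ± 0.51 CPM and the WT mean 88.8 ± 3.04 CPM (SD, n = 4 each). MTN2 had 0.0124, 0.0870, 0.130 and 0.262 CPM in G3 and 9.61, 9.24, 8.16 and 10.4 CPM in WT. It was lower in G3 by a log2 fold change of -6.21 (SE 0.49, adjusted p = 4.28e-09). Here and below, log2 fold changes are G3 over WT, with the standard error, and adjusted p-values come from edgeR's quasi-likelihood test with Benjamini-Hochberg adjustment over all 25730 genes tested. A gene is called when the adjusted p is under 0.05.

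**Figure D1:**
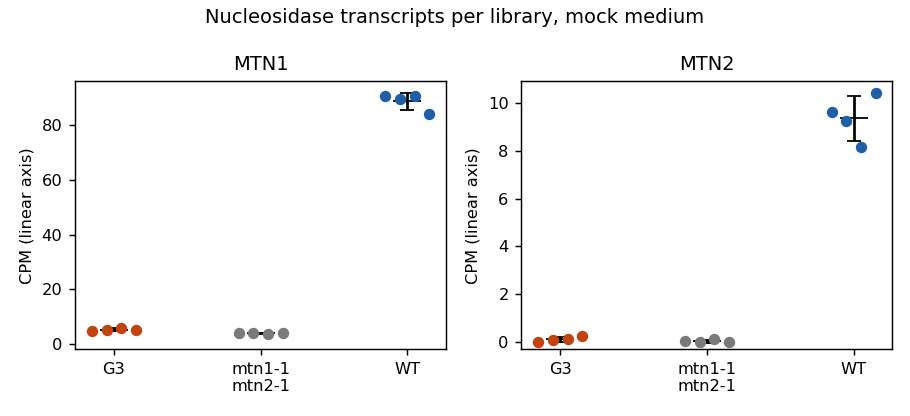
CPM (linear axes) of MTN1 and MTN2 in each mock bud library of G3, mtn1-1mtn2-1 and WT, with the mean and SD of 4 libraries in black. G3 and mtn1-1mtn2-1 lie near 0 for both genes, and the WT libraries lie between 84.3 and 90.6 CPM for MTN1.

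The G3 libraries held 76.5 to 92.4 M count units (M, 1e6) and the WT libraries 79.8 to 86.2 M, or an estimated 19.7 to 23.8 M and 20.6 to 22.2 M fragments. Spearman correlations across genes were 0.9864 to 0.9909 between G3 libraries, 0.9902 to 0.9927 between WT libraries and 0.9705 to 0.9785 between the groups. The 4 rRNA genes of the count table took 1.09% to 1.17% of the counts in G3, 2.171% to 3.005% in mtn1-1mtn2-1 and 0.206% to 0.248% in WT. This share separates the genotypes completely, and its part in the results below was not tested. The tissue label was checked against 12 floral organ identity genes. Their summed level was 946 to 1051 CPM in G3 and 1175 to 1267 CPM in WT, ranges that did not overlap. The sums of the leaf photosynthesis and late pollen lists, read here for other tissue and older buds, did not overlap either and are given below. Among 11 markers of developing seed, 7 held no more than 11.6 count units, about 3 fragments, in every G3 and WT library.

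Of the 25730 genes tested, 7589 (29.5%) were called, 3830 of them higher in G3 (14.9%) and 3759 lower (14.6%). A called change of at least 2-fold was found for 1744 genes (6.78%), 739 higher and 1005 lower. The libraries of the groups did not overlap for 34.3% of the genes tested. The median log2 fold change over all genes was 0.01. Of the calls, 23.0% reached 2-fold. The gene groups are described next, including those whose counts lay near or under this background.

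**Figure D2:**
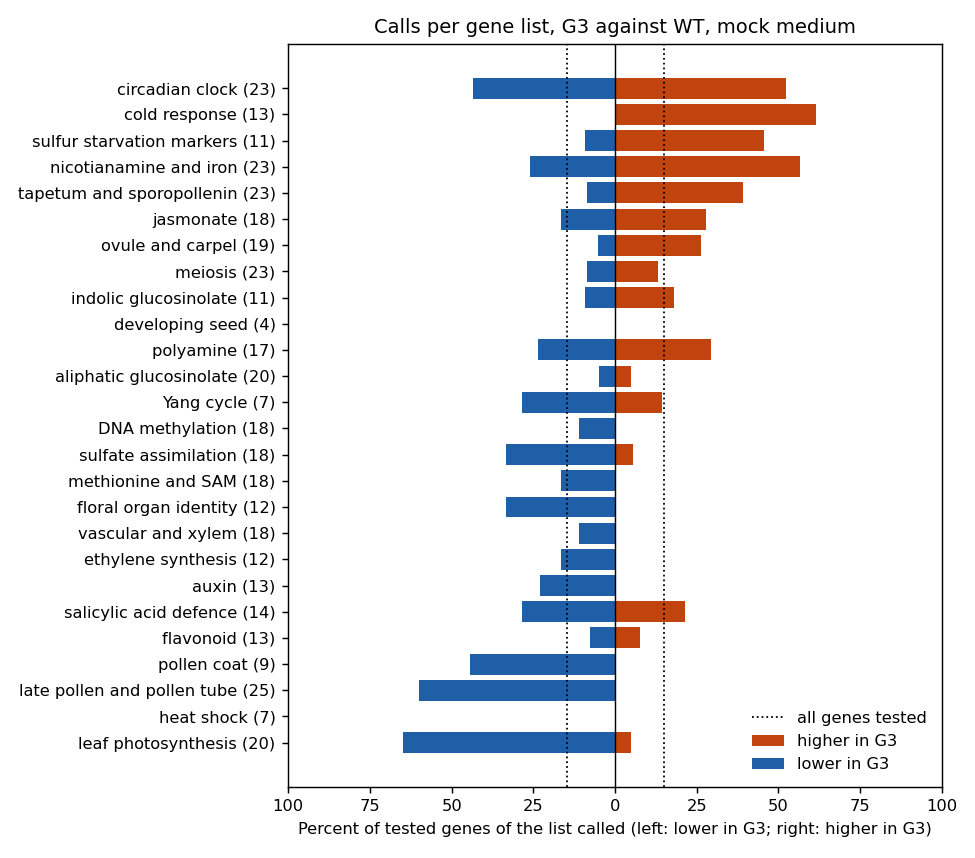
Percent of the tested genes of each of 26 gene lists called higher (right) or lower (left) in G3 than in WT on mock medium, with the number of genes tested in brackets. Lists are ordered by their median log2 fold change, from -0.69 for leaf photosynthesis at the bottom to 1.23 for the circadian clock at the top, and dotted lines mark the 14.9% and 14.6% of all genes tested.

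The circadian clock list had 1 gene without a call, with large changes in both directions. The plant clock is a loop in which the morning factors CCA1 and LHY repress evening genes such as TOC1, GI, ELF4 and LUX, and TOC1 in turn represses the morning genes, with the PRR proteins acting in sequence through the day. Of 23 clock-list genes, 12 were higher in G3, 10 were lower and 1, CHE, was not called, with 26.9 to 29.0 CPM in G3 and 21.6 to 30.5 CPM in WT. The counts 12 and 10 were the same in every setting tried under the names of the TPM table. The median of the list was 1.23 and, with limma on log2(TPM + 1), 0.599. With calls both ways, it stands for the smaller rises and not for the list as a whole.

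The morning genes were low in G3. CCA1 had 4.59, 3.51, 4.16 and 3.19 CPM in G3 and 81.8, 88.6, 85.9 and 89.9 CPM in WT. LHY had 2.14, 3, 2.12 and 2.05 CPM in G3 and 81.9, 99.1, 83.3 and 85.0 CPM in WT. Every G3 library lay far below every WT library for both genes, with no overlap. The log2 fold changes were -4.49 (SE 0.29, adjusted p = 2.34e-10) for CCA1 and -5.23 (SE 0.43, adjusted p = 6.78e-09) for LHY. Their relatives RVE8 (-4.01) and RVE1 (-3.26), the coactivators LNK1 (-2.23) and LNK2 (-3.05), the morning pseudo-response regulator PRR9 (-4.06) and CDF1 (-2.25), a daytime repressor of flowering, were also lower. PRR7, which follows PRR9 in the day, fell by 0.42 on the log2 scale, and the photoreceptor gene ZTL fell by 0.38.

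The afternoon and evening genes were high. TOC1 had 173, 178, 212 and 182 CPM in G3 and 27.8, 31.8, 31.8 and 27.0 CPM in WT, a log2 fold change of 2.65 (SE 0.20, adjusted p = 2.11e-09). ELF4, a subunit of the evening complex, had 116, 109, 119 and 92.4 CPM in G3 and 2.52, 2.45, 4.2 and 2.96 CPM in WT. No G3 library overlapped the WT libraries for either gene. ELF4 rose by 5.17 (SE 0.45), and the other members of its complex, LUX and ELF3, rose by 1.84 and 1.23. FKF1, the blue-light receptor that times flowering, had 125, 118, 118 and 82.4 CPM in G3 and 1.93, 2.26, 2.06 and 2.23 CPM in WT, a log2 fold change of 5.71 (SE 0.54, adjusted p = 6.60e-08). Its partner GI rose by 1.44, the pseudo-response regulators PRR3 and PRR5 by 4.42 and 3.03, the LUX relative BOA by 2.5 and the histone demethylase gene JMJD5 by 4.17. The clock output GRP7, a glycine-rich RNA-binding protein whose mRNA peaks in the evening, reached 6821, 6780, 6387 and 6112 CPM in G3 and 238, 217, 232 and 214 CPM in WT, 29.0-fold by the group means. GRP8, its close paralog, rose by 1.73.

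**Figure D3:**
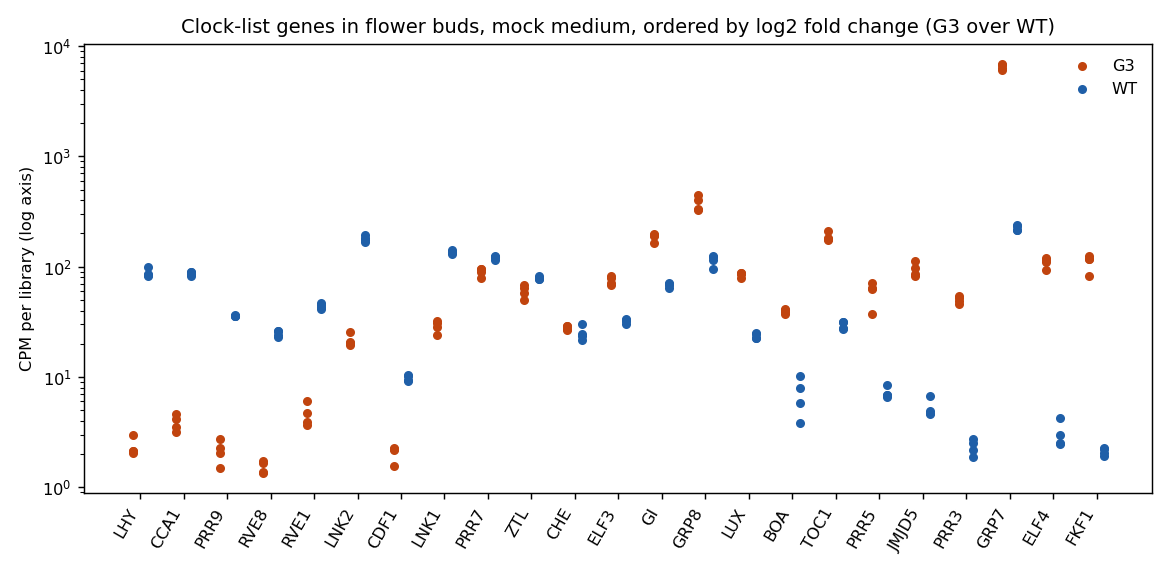
CPM (log axis) of the 23 clock-list genes in each G3 and WT mock bud library, ordered from the most negative to the most positive log2 fold change. The morning genes LHY, CCA1, PRR9 and RVE8 are low in all 4 G3 libraries, and GRP7, ELF4 and FKF1 are high in them.

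For LHY and TOC1, the G3 libraries lay close together, as did the WT libraries, and the mtn1-1mtn2-1 libraries were spread wider. LHY had 87.1, 20.5, 23.9 and 13.5 CPM in the mtn1-1mtn2-1 libraries, so replicate 1 lay at the WT level and the others lay between WT and G3. TOC1 had 26.4, 66.8, 53.4 and 57.4 CPM in the same libraries, again with replicate 1 at the WT level. The labels record no time of harvest. Time of day at harvest and genotype therefore cannot be told apart in these genes, nor in others known to follow the day.

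Promoter sequences of these genes were read from the RefSeq TAIR10.1 genome, 250 bases before to 50 after the annotated gene start, to show the clock element that evening genes are known for. The evening element, AAAATATCT on either strand, is the site through which CCA1 and LHY are known to act. It occurred in the promoters of 8 of the 12 clock genes called higher in G3 and in 1 of the 10 called lower, against 2.99% of the promoters of the 23379 protein-coding genes tested. The CCA1 binding site, AAAAATCT on either strand, which is not contained in the evening element, occurred in 1 of the 12 and 0 of the 10, against 7.9%. The G-box, CACGTG, which cannot overlap the evening element, occurred in 3 of the 12 and 8 of the 10, against 8.36%. Among genes changed by at least 2-fold, the evening element was in 84 of 642 promoters of higher genes (13.1%) and in 23 of 919 of lower genes (2.5%), the CCA1 site in 8.26% and 8.05%, and the G-box in 9.5% and 11.0%. A match is a description of these windows and not a binding site. The promoters of ELF4, PRR3, GI and ELF3, all called higher, held 0 evening elements, and that of PRR9, called lower, held 1. The promoters of 3 other genes that were high in G3 and 2 others that were low are given below. They run in the direction of transcription, with the evening element on either strand in capitals. They hold 3 copies in GRP7 (chr2:9266508-9266807, minus strand), 2 in FKF1 (chr1:25508389-25508688, plus strand), 1 in TOC1 (chr5:24674713-24675012, plus strand) and 0 in CCA1 (chr2:19245341-19245640, plus strand) and LHY (chr1:37822-38121, minus strand).
GRP7: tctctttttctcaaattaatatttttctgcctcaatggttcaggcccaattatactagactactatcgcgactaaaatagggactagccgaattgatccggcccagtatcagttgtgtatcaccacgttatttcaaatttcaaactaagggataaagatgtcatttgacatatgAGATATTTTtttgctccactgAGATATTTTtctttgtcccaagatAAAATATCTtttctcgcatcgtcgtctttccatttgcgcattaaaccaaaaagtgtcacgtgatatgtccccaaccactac
FKF1: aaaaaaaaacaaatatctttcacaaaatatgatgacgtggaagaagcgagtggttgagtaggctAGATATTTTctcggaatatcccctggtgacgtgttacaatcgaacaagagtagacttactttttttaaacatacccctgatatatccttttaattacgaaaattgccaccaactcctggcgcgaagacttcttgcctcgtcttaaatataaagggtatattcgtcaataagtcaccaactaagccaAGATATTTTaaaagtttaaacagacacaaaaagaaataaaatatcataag
TOC1: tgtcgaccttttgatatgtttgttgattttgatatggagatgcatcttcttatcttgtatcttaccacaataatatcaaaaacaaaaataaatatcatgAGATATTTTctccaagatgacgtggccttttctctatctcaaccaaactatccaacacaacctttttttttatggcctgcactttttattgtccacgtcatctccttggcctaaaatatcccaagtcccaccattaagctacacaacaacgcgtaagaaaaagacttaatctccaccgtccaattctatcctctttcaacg
CCA1: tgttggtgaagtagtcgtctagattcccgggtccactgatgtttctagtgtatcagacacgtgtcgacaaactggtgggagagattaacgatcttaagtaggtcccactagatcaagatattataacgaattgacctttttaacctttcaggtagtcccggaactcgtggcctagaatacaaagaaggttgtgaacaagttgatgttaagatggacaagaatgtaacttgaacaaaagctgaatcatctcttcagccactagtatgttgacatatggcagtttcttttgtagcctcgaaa
LHY: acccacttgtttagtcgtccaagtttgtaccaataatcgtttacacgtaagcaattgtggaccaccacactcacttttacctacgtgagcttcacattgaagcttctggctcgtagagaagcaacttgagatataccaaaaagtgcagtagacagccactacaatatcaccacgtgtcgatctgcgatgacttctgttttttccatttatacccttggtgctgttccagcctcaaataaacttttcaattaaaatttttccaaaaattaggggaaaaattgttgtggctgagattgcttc

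Genes of cold acclimation were higher in G3. Of 13 cold-response genes tested, 8 were called higher and 0 lower, with a median log2 fold change of 0.94, and their summed level was 6582 to 8493 CPM in G3 and 1742 to 2114 CPM in WT. COR15B, a chloroplast protein that protects membranes against freezing, had 571, 496, 566 and 419 CPM in G3 and 41.5, 41.9, 42.8 and 37.2 CPM in WT, a log2 fold change of 3.65 (SE 0.34, adjusted p = 4.35e-08). RD29A, a marker of cold and drought responses, had 1422, 1138, 1250 and 756 CPM in G3 and 114, 120, 119 and 124 CPM in WT. G3 replicate 4 was the lowest of its group for both genes and still far above WT. RD29A rose by 3.26 (SE 0.59), KIN2 by 2.48, COR15A by 1.93 and ERD10 by 0.94. KIN1 (0.24), COR47 (0.51) and CBF1 (3.03), an upstream activator of the COR genes, were called too, but these calls were not stable. KIN1 lost its call without G3 replicate 3. COR47 lost its call without most single libraries, with limma, with DESeq2 size factors and with no filter on low counts. When 1 library was left out, CBF1 kept its call only without G3 replicate 4. The count of 8 was 5 without G3 replicate 3. CBF2, CBF3, ZAT10, ZAT12 and GOLS3 were not called. COR15A and COR15B, and KIN1 and KIN2, are neighbouring copies between which reads may have been shared.

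COR27, which links cold and the clock, stood among the largest rises in the data. It had 84.8, 106, 138 and 108 CPM in G3 and 1.69, 2.02, 2.22 and 1.94 CPM in WT, 55.5-fold by the means (log2 fold change 5.79, SE 0.40, adjusted p = 4.94e-10). Several cold-responsive genes, COR27 among them, are known to be gated by the clock.

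Light-harvesting genes were lower in G3. Of 20 genes of leaf photosynthesis, 13 were called lower and 1 higher, with a median of -0.69, and the summed level was 22187 to 26374 CPM in G3, 38642 to 48228 CPM in mtn1-1mtn2-1 and 32108 to 37398 CPM in WT. LHCB2.3, an antenna protein of photosystem II, had 27.6, 27.7, 31.9 and 31.0 CPM in G3 and 347, 326, 297 and 323 CPM in WT, a log2 fold change of -3.45 (SE 0.17, adjusted p = 2.20e-12). LHCB1.1 fell by 2.65, LHCB2.1 by 2.66, LHCB2.2 by 2.11, LHCB3 by 1.46 and LHCB4.2 by 1.22. RCA, the Rubisco activase, had 814, 864, 876 and 674 CPM in G3 and 2275, 2111, 1970 and 2120 CPM in WT and fell by 1.39 (SE 0.14). The antenna genes of photosystem I LHCA1, LHCA3 and LHCA4 fell by 1.16, 0.61 and 0.99. The small subunits of Rubisco RBCS2B and RBCS3B fell by 0.71 and 0.40, whereas RBCS1A had 4274 to 4995 CPM in G3 and 4381 to 5483 CPM in WT and was not called. LHCB1.3 was called higher by 0.30, a call lost under 3 other settings and when 1 of 6 libraries was left out. The LHCB1 genes, and LHCB2.1 and LHCB2.2, are near-identical copies, so their single values are uncertain.

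Iron genes moved in both directions. Iron-deficient leaves and roots of Arabidopsis are known to switch on the bHLH factors of subgroup Ib, while ferritins, which store iron, are known to fall with it. Of 23 tested genes of nicotianamine and iron, 13 were called higher and 6 lower, with a median of 0.60. bHLH38 had 4.23, 6.53, 12.4 and 0.568 CPM in G3 and 0.0477, 0.0493, 0 and 0.0481 CPM in WT. bHLH39 had 2.46, 3.41, 5.12 and 0.721 CPM in G3 and was at 0 in all 4 WT libraries. G3 replicate 4 was the lowest and replicate 3 the highest of the G3 libraries for both factors. Since every WT library held at most 11.6 count units, the means give only bounds, at least 41.4-fold higher for bHLH38 (adjusted p = 9.82e-04) and at least 20.5-fold higher for bHLH39 (adjusted p = 6.30e-04).

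The same order of libraries recurred in other genes of the response. AT2G30766 had 24.3, 32.3, 42.1 and 14.8 CPM in G3 and 0.370, 1.25, 0.934 and 1.89 CPM in WT (log2 fold change 4.67, SE 0.80). AT1G47400, AT1G47395 and bHLH100 rose by 3.32, 2.67 and 3.56. bHLH101, with 0.821, 1.13, 3.29 and 0.35 CPM in G3, was also at the floor in every WT library and was at least 9.77-fold higher by the means (adjusted p = 7.75e-04). The list's median is the same with the 3 factors at their bounds, since all 3 bounds lie above it. The reductase FRO3 rose by 1.06, and the regulators PYE and BTS and the phloem transporter OPT3 rose by 0.64, 0.60 and 0.54. The BTS call was lost without G3 replicate 3. The PYE call was lost without G3 replicate 3 or any one of WT replicates 1, 3 and 4. When 1 library was left out, OPT3 kept its call only without G3 replicate 4. The ferritin FER1 had 133, 112, 111 and 126 CPM in G3 and 350, 326, 277 and 280 CPM in WT, a log2 fold change of -1.35 (SE 0.10, adjusted p = 7.56e-10). FER4 fell by 0.69, but FER3 rose by 0.46. The iron transporter IRT1, with 18.7, 13.6, 13.1 and 16.2 CPM in G3 and 23.3, 26.5, 38.6 and 31.1 CPM in WT, fell by 0.95. The ferric reductase FRO2 fell by 1.42 and the nicotianamine-metal transporter YSL1 by 0.89. Nicotianamine synthase genes were near the limit of detection. NAS3 was called lower (-1.53) and NAS4 higher (2.08), each at most 1.14 CPM in every library of both groups. Both calls were lost without any one of several libraries, and NAS1 was not tested.

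In the Yang cycle and in methionine, S-adenosylmethionine and ethylene synthesis, called changes were below 2-fold. Of 7 Yang cycle genes, 1 was called higher and 2 lower, near the background of 14.9% and 14.6%, all of them acireductone dioxygenases. ARD1 rose by 0.47, and ARD3 and ARD4 fell by 0.92 and 0.52. MTK, MTI1 and DEP1, the kinase, isomerase and enolase-phosphatase of the cycle, were not called, with log2 fold changes of 0.09, 0.11 and 0.04 (95% interval for DEP1 -0.07 to 0.14). Of 18 genes of methionine and S-adenosylmethionine, 3 were called lower and 0 higher. The lower genes were the synthetase SAM2 (-0.25), the methyltransferase HMT3 (-0.53, a call lost without any one of 3 libraries) and MMT (-0.22). The lower count was 2 to 4 without 1 library and 6 with limma on log2(TPM + 1). The higher count was 2 when only the groups compared were fitted. For ethylene, also made from S-adenosylmethionine, 0 of 12 genes tested were called higher and 2 lower. That lower count was 0 without any single one of G3 replicates 2 and 3 or WT replicates 2 and 3. It was 1 without G3 replicate 4 or WT replicate 4. The oxidase ACO4 was lower by a log2 fold change of -0.38.

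Polyamine genes changed by up to 0.86 on the log2 scale. Of 17 tested, 5 were called higher and 4 lower, against 14.9% and 14.6% of all genes tested, with a median of 0.08. ADC2, the stress-responsive arginine decarboxylase, had 634, 618, 670 and 835 CPM in G3 and 405, 391, 364 and 376 CPM in WT, a log2 fold change of 0.84 (SE 0.10, adjusted p = 1.22e-06). SPDS2, a spermidine synthase, had 65.2, 60.3, 70.1 and 67.4 CPM in G3 and 37.1, 37.7, 33.1 and 37.3 CPM in WT, a log2 fold change of 0.86 (SE 0.07, adjusted p = 1.15e-08). Neither gene's groups overlapped. SPDS1 rose by 0.39, AT5G15950, annotated as an adenosylmethionine decarboxylase family protein, by 0.36 and the thermospermine synthase gene ACL5 by 0.27, the last a call lost when 1 of 5 libraries was left out. SAMDC, which supplies the aminopropyl donor, had 1388, 1454, 1428 and 1405 CPM in G3, 2455 to 2989 CPM in mtn1-1mtn2-1 and 1901, 1833, 1754 and 1886 CPM in WT, and fell by 0.38 against WT (adjusted p = 0.00133). The agmatine iminohydrolase EMB1873, the spermine synthase SPMS and the oxidase PAO3 fell by 0.44, 0.32 and 0.32. The PAO3 call was lost without any single one of G3 replicates 1, 3 and 4 or WT replicates 3 and 4.

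Of 11 sulfur starvation markers tested, 5 were called higher in G3 on mock medium and 1 lower. Over all genes tested the shares were 14.9% and 14.6%. The markers had a median of 0.63. Their summed level was 152 to 203 CPM in G3 and 146 to 160.0 CPM in WT, and these ranges overlapped. ATSDI1, a repressor of glucosinolate synthesis under sulfur deficiency, had 5.19, 6.75, 8.35 and 8.53 CPM in G3 and 3.33, 3.74, 3.38 and 3.30 CPM in WT (log2 fold change 1.07, SE 0.23, adjusted p = 0.00145). LSU3 had 6.22, 12.7, 14.8 and 10.6 CPM in G3 and 6.51, 4.07, 4.16 and 5.52 CPM in WT, with G3 replicate 1 inside the WT range, and rose by 1.13. GGCT2;1, which breaks down glutathione, rose by 1.16, AT1G04770 by 0.52 and LSU2 by 0.72, the last 2 being calls lost without any one of several libraries, while LSU4 fell by 0.89. The count of 5 was 3 without G3 replicate 3, WT replicate 2 or WT replicate 3. In sulfate assimilation, 6 of 18 genes were called lower and 1 higher. APS1, the ATP sulfurylase that activates sulfate, had 126, 120, 122 and 126 CPM in G3 and 185, 188, 192 and 193 CPM in WT, a log2 fold change of -0.61 (SE 0.06, adjusted p = 1.99e-07), and GSH2, glutathione synthetase, rose by 0.30. GSTF9, a glutathione transferase of indolic glucosinolate synthesis, had 349, 287, 278 and 376 CPM in G3 and 131, 131, 155 and 122 CPM in WT and rose by 1.26. Of the 20 aliphatic glucosinolate genes tested, 1 was called higher and 1 lower. With 1 library left out these counts were 0 to 2 and 0 to 1. When only the groups compared were fitted, 4 were called higher. Of the 11 indolic genes, 2 were higher and 1 lower. In the main fit, the aliphatic counts and the lower indolic count lay under the shares of all genes, and the higher indolic count lay near its share.

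The same contrast on spermidine medium, made from other libraries, called 6793 genes (26.4%). Of the genes called on mock medium, 65.4% were also called on spermidine, which is 73.0% of the spermidine calls, and 4960 of these 4961 genes had the same direction. The difference of the G3 effect between the media was called for 1 gene by edgeR (0.00389%, lower on spermidine), with 1434 genes at an unadjusted p under 0.05, and for 14 by DESeq2. That gene was AT5G17460, annotated as a subunit C of glutamyl-tRNA(Gln) amidotransferase, with 20.4, 19.5, 24.5 and 17.41 CPM in G3 and 2.52, 2.87, 3.04 and 2.73 CPM in WT on mock medium. Its log2 fold change was 0.42 on spermidine and 2.87 on mock (difference -2.46, adjusted p = 0.0352), and the call of the difference was lost when 1 library was left out for 14 of the 16 libraries. ATSDI1 had 2.49 on spermidine against 1.07 on mock, a difference of 1.42 that was not called (adjusted p = 0.40). The iron factor bHLH100 had 2.09 on spermidine against 3.56 on mock, and this difference was not called either (adjusted p = 0.925). By list, 4 cold genes were called higher and 0 lower on spermidine (median 0.50), and 8 and 5 iron genes (0.19). Sulfur starvation markers had 10 higher and 1 lower (1.14), clock genes 12 and 9 (1.18) and photosynthesis genes 0 and 17 (-0.79). Over all genes, 12.8% were called higher and 13.6% lower. How these lists differ between the media was not tested.

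**Figure D4:**
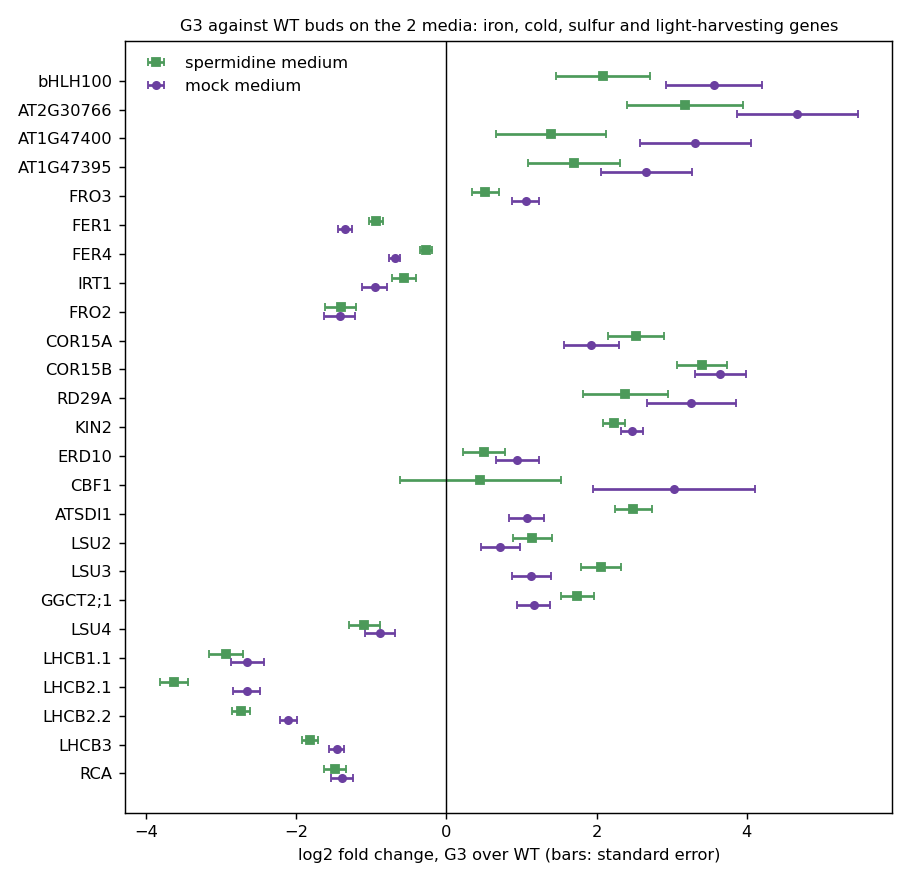
log2 fold change of G3 over WT with its standard error for genes of iron, cold, sulfur and light harvesting on spermidine medium (squares) and mock medium (circles). The direction is the same on both media for each gene shown, and CBF1 has wide bars.

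Of 25 genes of late pollen and the pollen tube, 15 were called lower in G3 than in WT and 0 higher, with a median of -0.41. The lower count was 11 to 15 when 1 library was left out. Against mtn1-1mtn2-1, 20 of the same genes were called higher in G3 and 0 lower, with a median of 0.64, in a contrast that called 20.7% of all genes (11.6% higher and 9.09% lower). The G3 libraries enter both contrasts, so the counts are not independent. The summed level of the list was 1960 to 2529 CPM in G3, 1111 to 1549 CPM in mtn1-1mtn2-1 and 2840 to 3341 CPM in WT, 3 ranges that did not overlap.

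VGDH1, a pectin methylesterase of the pollen tube, had 119, 99.7, 83.3 and 75 CPM in G3, 34.7, 53.5, 28.2 and 57.6 CPM in mtn1-1mtn2-1 and 181, 232, 282 and 215 CPM in WT. It fell by 1.27 against WT (SE 0.26, adjusted p = 9.16e-04) and was higher by 1.11 than in mtn1-1mtn2-1 (adjusted p = 0.00439). The proton pump gene AHA8 fell by 1.02, the pollen tube receptor kinase gene ANX2 by 1.55, AT4G39110 by 1.07 and the peptide hormone gene RALFL19 by 0.97, all against WT. DUO1 and HAP2, genes of the male germ line, averaged 1.53 and 1.79 CPM in G3 and 1.26 and 1.35 CPM in WT and were not called. In the pollen coat list, GRP17, EXL4, EXL6 and AT1G75900 were called lower among 9 genes, and only 1 call was made without WT replicate 4, the library with the highest EXL6 level.

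Tapetum and sporopollenin genes, active in earlier anthers, stood on the other side. Of 23, 9 were called higher and 2 lower, with a median of 0.32, a count that was 5 without G3 replicate 3 or WT replicate 4. LAP6, a polyketide synthase for sporopollenin, had 197, 194, 240 and 234 CPM in G3 and 169, 124, 100 and 118 CPM in WT and rose by 0.76 (SE 0.15, adjusted p = 5.94e-04). CYP703A2, TKPR2 and the exporter gene ABCG26 rose by 0.66, 0.51 and 0.49. The early anther genes SPL and TPD1 fell by 0.54 and 0.62. On spermidine, 0 of the 23 were called higher and 1 lower. The stages of the buds in each pool are not given in the labels, and their part in these lists was not tested.

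**Figure D5:**
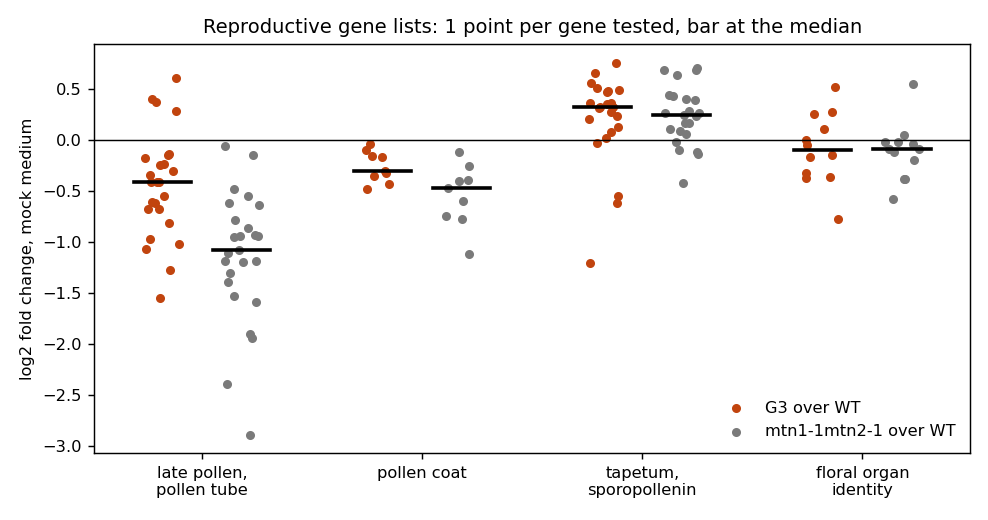
log2 fold changes on mock medium of G3 over WT and of mtn1-1mtn2-1 over WT for the tested genes of 4 reproductive lists, 1 point a gene, with the median as a bar. Both contrasts use the same WT libraries. The late pollen medians are -0.41 for G3 and -1.08 for mtn1-1mtn2-1, and the tapetum medians are 0.32 and 0.24.

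Called organ identity genes were all lower in G3, each by less than 2-fold. Of 12, 4 were called lower and 0 higher, against 14.6% and 14.9% of all genes tested, with a median of -0.10. The 4 were PI (-0.77), SEP3 (-0.37), AG (-0.36) and AP3 (-0.15, a call lost when 1 of 5 libraries was left out). PI, which specifies petals and stamens with AP3, had 153, 114, 114 and 106 CPM in G3 and 226, 174, 173 and 256 CPM in WT. In the carpel and ovule list of 19 genes, SHP1, CRC, SPT, ANT and SUP were called higher by 0.29 to 0.59, and the stem-cell gene WUS fell by 0.55. Without WT replicate 4 this count was 3. Among 23 meiosis genes, 3 were called higher and 2 lower, both at or under the background, and the lower count was 1 without any single library other than G3 replicate 1. ASY1, a protein of the chromosome axis, had 6.02, 5.85, 4.51 and 6.25 CPM in G3 and 2.71, 1.74, 1.5 and 1.65 CPM in WT and rose by 1.57 (SE 0.17, adjusted p = 2.92e-07). HOP2 and ATMND1, which act as a pair in strand invasion, rose by 0.65 and 0.78, and DMC1, the meiotic recombinase, fell by 0.30.

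In the hormone and defence lists, 0 of 13 auxin genes were called higher and 3 lower, 5 of 18 jasmonate genes higher and 3 lower, 3 of 14 salicylic acid genes higher and 4 lower, and 1 of 13 flavonoid genes each way. The jasmonate count of 5 was 3 without G3 replicate 1, 4 without WT replicate 3 and 2 without any other single library, and the salicylic acid count of 4 was 2 without G3 replicate 1. When only the groups compared were fitted, 6 auxin and 6 flavonoid genes were called lower. Of 18 vascular genes, 0 were called higher and 2 lower. Over all genes tested, 14.9% were called higher and 14.6% lower, and the flavonoid and vascular counts of the main fit lay under these shares. The auxin genes IAA19, with 12.9, 10.2, 9.32 and 9.65 CPM in G3 and 28.8, 24.6, 28.8 and 31.2 CPM in WT, and PIN3, an auxin efflux carrier, fell by 1.43 and 1.04. In the jasmonate list, LOX2 and AOC2, enzymes of jasmonate synthesis, rose by 0.71 and 1.79, and the stamen filament regulator MYB21 fell by 0.81, with 23.97, 24.9, 22.3 and 36.9 CPM in mtn1-1mtn2-1 libraries, lower again than the 42.7 to 77.2 CPM in G3. PR1, a marker of salicylic acid defence, had 14.1, 0.130, 2.70 and 3.16 CPM in G3 and 0, 0, 0.0456 and 0 CPM in WT, so replicates 1 and 2 of G3 lay far apart. It was called higher (adjusted p = 1.38e-04, at least 35.2-fold by the means), and on spermidine it was not called (-0.62). QQS, a starch regulator gene whose expression is known to vary with DNA methylation, had 5.99, 10.2, 11.9 and 9.03 CPM in G3, 9.95 to 14.9 CPM in mtn1-1mtn2-1 and 52.3, 54.5, 54.0 and 51.7 CPM in WT, a log2 fold change of -2.52 (SE 0.16, adjusted p = 1.62e-10). ROS1, a DNA demethylase, fell by 0.31, and the other 16 genes of the DNA methylation list were not called. Of the heat shock list, 0 of 7 tested genes were called by edgeR or by DESeq2.

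Beyond the lists, the largest changes were taken among 6294 called protein-coding genes with no overlap between the groups and with 50 counts or more in each library of whichever group was higher. By fitted log2 fold change, the 10 largest rises were bHLH39, AT5G26270, bHLH38, COR27, AT1G07050, FKF1, AT3G60950, ELF4, AT5G23240 and AT2G33830. For bHLH39, AT5G26270, bHLH38 and AT3G60950, which were at the floor in WT, only bounds are known, so their places in this order depend on the fit. AT5G26270, annotated as an uncharacterized protein, had 9.34, 9.77, 9.97 and 10.7 CPM in G3, 2.88 to 4.39 CPM in mtn1-1mtn2-1 and at most 0.0716 CPM in WT, at least 69.5-fold higher in G3 than in WT. AT1G07050, a CCT-motif protein, had 43.4, 42.0, 42.6 and 35.7 CPM in G3 and 0.668, 0.789, 0.889 and 0.625 CPM in WT (log2 fold change 5.78, SE 0.44). AT5G23240, annotated with a DNAJ domain, rose by 4.98. AT2G33830, of the dormancy and auxin associated family, had 608, 512, 780 and 661 CPM in G3, 38.0, 328, 484 and 559 CPM in mtn1-1mtn2-1 and 17.01, 23.2, 24.8 and 18.4 CPM in WT. AT3G60950 reached only 0.798 to 1.11 CPM in G3, at least 6.69-fold higher. Among the more abundant genes, AT4G30650, of a low temperature and salt responsive family, had 377, 344, 330 and 344 CPM in G3 and 15.03, 16.6, 14.2 and 15.1 CPM in WT (4.52, SE 0.24), and it joined COR27, FKF1, ELF4, AT2G33830 and GRP7 as the 6 largest rises.

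By fitted log2 fold change, the 10 largest falls were AT2G15020, MTN2, AT1G64795, AT1G51820, LHY, AT3G09450, BBX16, CCA1, AT2G27420 and AT3G50560. AT2G15020 and AT1G51820 were at the floor in G3, so their places in this order also depend on the fit. AT2G15020 had 0.0995, 0, 0 and 0.0109 CPM in G3 and 3.50, 3.82, 3.96 and 4.90 CPM in WT, at least 26.8-fold lower in G3. AT1G51820, a leucine-rich repeat kinase, was at least 9.25-fold lower. AT1G64795 had 0.112, 0.196, 0.130 and 0.153 CPM in G3, 0.102 to 0.448 CPM in mtn1-1mtn2-1 and 9.25, 10.7, 8.53 and 7.02 CPM in WT, so that both mutant groups lay far below WT. BBX16, a B-box zinc finger protein, had 0.149, 0.239, 0.117 and 0.437 CPM in G3, 2.92 to 7.61 CPM in mtn1-1mtn2-1 and 5.07, 5.72, 5.79 and 6.21 CPM in WT. Of the falls among abundant genes, LHCB2.3, LNK2, LHCB2.1 and LHCB1.1 have been described. SQP1, a squalene monooxygenase, fell by 2.64 and RPT2, a phototropism protein, by 2.54.

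Against mtn1-1mtn2-1 on mock medium, which by its label carries the same alleles, G3 differed at 5315 genes (20.7%), 2976 higher and 2339 lower. The count was 3205 when only these groups were fitted. By fitted log2 difference, the 4 largest rises in G3 were PP2-A10, AT1G07050, GPAT5 and JMJD5. JMJD5 had 82.2, 86.0, 97.2 and 113 CPM in G3 and 4.22, 5.45, 5.15 and 5.90 CPM in mtn1-1mtn2-1, a log2 difference of 4.19 (SE 0.23). PP2-A10 had 10.3, 20.2, 15.9 and 20.3 CPM in G3, 0, 0, 0.0918 and 0 CPM in mtn1-1mtn2-1 and 0, 34.1, 33.8 and 0 CPM in WT, so the WT replicates disagreed, with replicates 1 and 4 at 0. Its place rests on mtn1-1mtn2-1 libraries at or near 0, and its call was lost with limma on log2(TPM + 1) (adjusted p = 0.386). GPAT5, a suberin acyltransferase, had 39.5, 32.9, 4.37 and 22.9 CPM in G3 and 0.256, 0.356, 2.26 and 2.44 CPM in mtn1-1mtn2-1. The 4 largest falls were BBX16, AT1G65490, AT3G50560 and LHY, of which LHY was lower by 3.96. In this contrast 11 clock genes were higher and 10 lower in G3, 7 cold genes were higher and 19 of 20 photosynthesis genes were lower. The iron factors bHLH38 and bHLH39 were not called, with log2 differences of 0.43 (95% interval -1.57 to 2.44) and -0.10 (95% interval -1.92 to 1.73).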

How the data were processed

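Polyadenylated RNA of unopened flower buds was sequenced, by either of 2 providers that are not recorded per library, per the labels. The authors' deposited bud count table holds estimated counts per gene, in whole numbers. Of the low values, 36.1% lay within an eighth of a step of multiples of 3.88, where evenly spread values would give 25.0%. A fragment is therefore estimated at 3.88 units, and 3 fragments at 11.6. Their deposited TPM table gave the genotype names. Trim Galore, STAR, StringTie and TAIR10 are listed without versions in the submitters' processing notes, with no order. How counts and TPM were computed is not given in the sources used here. Each count column was matched to the TPM column of closest log2 profile after centring each gene.

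The counts were used as deposited. All 24 bud libraries (6 groups) were fitted together with edgeR 4.0.16 in R 4.3.3 (filterByExpr, TMM, quasi-likelihood test), and p-values were Benjamini-Hochberg adjusted over 25730 genes with a threshold of 0.05. The standard error is the log2 fold change divided by the square root of F. DESeq2 1.42.0 and limma 3.58.1, on log2(TPM + 1), were alternatives, as were other filters, scalings, samples in the fit, a replicate block and leaving out each library. The steps were tested on simulated data. CPM uses TMM-scaled totals, and depth limits low genes, for which counting error alone is large. A gene at or under 11.6 count units in every library of a group gives a fold only as a bound, with the floor taken per library.

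Beside list members, the text names MTN1, MTN2, the 10 largest rises and falls, the 6 largest among genes averaging at least 100 CPM, the 4 largest against mtn1-1mtn2-1 and any gene called between media. The members, the gene lists and this rule were chosen with earlier results of these data known. Names and promoters come from RefSeq TAIR10.1. Some items are withheld and are not reported here.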

Additional observations from a re-analysis of the deposited data

Results flagged for a closer look

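Single libraries stood apart from the other 3 of their group for 20 of 322 gene and group combinations, by the gap to the nearest library over the range (Dixon's 95% critical value). Chance gives about 1 in 20 for normally distributed values. That rate does not apply to groups near the floor. For bHLH101, PR1, AT3G60950 and AT5G26270 in WT the other 3 libraries were tied, so no comparison with the rate is drawn. The G3 libraries held 8 of these and the WT libraries 12.

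G3 replicate 4 was low for FKF1 (82.43 CPM), CDF1 (1.574 CPM), LHCB2.1 (123.8 CPM) and ARD1 (86.69 CPM). G3 replicate 1 was high for PI (153.0 CPM) and for AT2G15020 (0.09948 CPM), and G3 replicate 2 was high for LHY (3.0 CPM) and PAO3 (36.41 CPM). Each of these 8 genes kept its call against WT when that library was left out, though the PAO3 call was lost without other single libraries.

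WT replicate 3 was high for PRR9 (36.42 CPM), JMJD5 (6.767 CPM), bHLH101 (0.09114 CPM), PR1 (0.04557 CPM) and AT3G60950 (0.07975 CPM), and low for SPDS2 (33.12 CPM) and bHLH38 (0.0 CPM). WT replicate 4 was high for YSL1 (55.11 CPM) and EXL6 (410.5 CPM) and low for CRC (24.12 CPM). The EXL6 call was lost without WT replicate 4, and also without G3 replicate 1 or G3 replicate 4. WT replicate 1 was high for DMC1 (15.8 CPM) and AT5G26270 (0.07159 CPM). The WT values below 0.1 CPM are at or under the detection floor of 11.6 count units.

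The G3 effect on AT5G17460 was called different between media in the main fit, by -2.455 on the log2 scale (spermidine minus mock). The call was lost without any one of most single libraries, as given above. With limma on log2(TPM + 1) the difference was -0.602 and was not called (adjusted p = 0.885).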

How the results depend on the processing

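The number of genes called between G3 and WT on mock medium stayed between 7003 and 8720 under the alternatives and between 6213 and 7104 without 1 library. Under the names of the count table the same genes gave 3759 higher and 3830 lower. The number called with at least a 2-fold change was 1026 with limma on log2(TPM + 1), and 1474 to 1766 without 1 library. Between the media, 14 genes were called with DESeq2, 0 with limma, 15 when only the groups compared were fitted, 2 with the replicate block and 0 to 2 without 1 library. Against mtn1-1mtn2-1, 3205 genes were called when only the groups compared were fitted and 4010 to 5516 without 1 library. On spermidine, 5583 to 6324 genes were called without 1 library. The cause of these shifts was not tested. Of 158 named genes checked under the settings that kept the TPM names, 134 held their call under every setting. In this set 24 lost or gained it when 1 library was left out and 0 reversed. Not every gene named above as without a call is in this set. One outside it, CBF3, was called higher when only the groups compared were fitted (log2 fold change 1.09, adjusted p = 0.0316, edgeR). Same-numbered libraries did not deviate together (correlations of -0.07 to 0.011), so the numbers are not taken as pairs. With the replicate block, 7470 genes were called, and AP3, LHCB1.3 and LSU2 lost their calls. Genes near 3 fragments, such as NAS3 and NAS4, are limited by depth.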

Other observations

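Some genes outside the lists were chosen after their values were seen. FWA, a homeobox gene known for silencing by DNA methylation in vegetative tissue, had 4.09, 3.83, 3.25 and 4.48 CPM in G3, 6.05, 6.24, 7.57 and 6.66 CPM in mtn1-1mtn2-1 and 0.37, 0.333, 0.251 and 0.409 CPM in WT. All libraries of both mutant groups lay above all WT libraries, and the log2 fold change of G3 over WT was 3.52 (SE 0.27, adjusted p = 2.09e-09, edgeR).

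The pseudogene AT5G35935 had 28.1, 26.3, 28.7 and 25.9 CPM in G3 and 0.501, 0.284, 0.627 and 1.31 CPM in WT. The pseudogene AT5G27505 was at 0 in all 4 G3 libraries and had 15.4, 14.4, 14.9 and 13.4 CPM in WT, at least 96.4-fold lower in G3. The non-coding RNA AT1G67105 had 33.6, 37, 56.8 and 42.7 CPM in G3, a log2 fold change of 6.08 over WT.

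The 5.8S rRNA gene AT3G41979 had 105, 106, 129 and 134 CPM in G3, 173, 261, 278 and 0.0227 CPM in mtn1-1mtn2-1 and a mean of 0.024 CPM in WT. Replicate 4 of mtn1-1mtn2-1 thus lay at the WT level, apart from the other libraries of its group.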
